A study of Caenorhabditis elegans with 2 samples.

Results

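A set of 10 genes that encode germ granule proteins and maternal RNA-binding proteins of the nematode Caenorhabditis elegans was followed through the regions called in a chromatin immunoprecipitation with sequencing (ChIP-seq) of the corepressor SPR-1. They were taken as a named list, mex-1, mex-3, mex-5, cgh-1, pgl-1, pgl-3, glh-1, pie-1, pos-1 and nos-2, and all 10 were found among the 19973 nuclear protein-coding genes of the annotation. Each region has a summit, a position the authors give for it. Their candidate lists hold strong and weak regions together with background, and the regions that passed their threshold stand in a thresholded list as well. Of these genes, 2 had a thresholded summit within 1000 bp of the start, mex-1 and cgh-1, against 5.83% of all protein-coding genes. The mex-1 summit was nearer to the start of the divergent gene W03C9.5, at 162 bp, than to that of mex-1, at 931 bp. No thresholded summit lay in the body of any of the 10, against 2.50% of all genes. In the list pooled from both replicates, candidate summits lay near the start or in the body of 9, against 56.6% of all genes. nos-2 had none.

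Germ granules, called P granules in this species, are bodies of RNA and protein in the cytoplasm of germ cells and of the embryonic cells that give rise to them. Much of what the early embryo uses is laid down by the mother as mRNA, and RNA-binding proteins decide where and when these mRNAs are stored, translated or destroyed. Germ granule genes are best known for activity in the germ line, and in somatic cells they are kept low by chromatin regulators. SPR-1 is a worm member of the CoREST family, whose proteins tether LSD1, an enzyme that removes histone methyl groups, and deacetylases to chromatin.

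The study measured 1 group of 2 biological replicates. Worms of strain OP521, with the genotype unc-119(tm4063) III; wgIs521, carried a transgene for SPR-1 with a C-terminal GFP-FLAG tag, and an anti-GFP antibody was used for the precipitation. The antibody label of both samples reads spr-1. The labels do not name the promoter that drives the transgene. The worms were hermaphrodite L4 larvae, 50 hours after synchronisation as starved L1 larvae, and were taken whole, so germ line and soma cannot be told apart and no marker of either can be checked in a list of regions. There was no list from an untagged or wild-type strain at hand, so a nearby summit need not be specific binding by SPR-1, and all values below are comparisons among genes within the group. Both replicates carry the tag and the unc-119 allele, and the strain is a single transgenic line.

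The deposited lists give regions with a summit and a signal on the authors' own scale, not reads, and read depth is unknown. The pooled list, made from both replicates together, held 29977 nuclear lines of candidates and background, with a signal of 17.6 at the lowest, a median of 27.4 and 1684 at the highest. The thresholded list held the 1663 nuclear lines of highest signal, from 79.7 up. Replicate 1 had 26049 nuclear lines and replicate 2 had 21944. Ranks below are over the nuclear lines of a list, with 1 the strongest, and signals are read only within a list. An offset is the distance of a summit from the annotated gene start, negative upstream.

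The sequences at the summits that carry the main results are shown first. They are the bases within 100 bp of the thresholded summits upstream of mex-1 and cgh-1, and, for comparison, of the strongest summit near the start of pie-1, whose signal was below the threshold. All come from the reference genome WBcel235 (ce11), plus strand, and lie outside annotated exons. The mex-1 window is chrII:11967606-11967806, with 50.7% G and C. The cgh-1 window is chrIII:7498433-7498633, with 47.3%, and the pie-1 window is chrIII:12426304-12426504, with 33.8%. Each is read 5′ to 3′, and capitals mark matches to any of 8 short motifs searched on both strands.
mex-1: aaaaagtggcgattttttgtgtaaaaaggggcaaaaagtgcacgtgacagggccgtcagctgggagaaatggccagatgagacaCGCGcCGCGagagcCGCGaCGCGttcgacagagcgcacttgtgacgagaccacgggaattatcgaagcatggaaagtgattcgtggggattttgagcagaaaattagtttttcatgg
cgh-1: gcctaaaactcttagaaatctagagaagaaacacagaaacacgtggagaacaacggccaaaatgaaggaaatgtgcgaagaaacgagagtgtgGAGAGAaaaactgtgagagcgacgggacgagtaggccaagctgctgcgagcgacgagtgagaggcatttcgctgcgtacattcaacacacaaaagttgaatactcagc
pie-1: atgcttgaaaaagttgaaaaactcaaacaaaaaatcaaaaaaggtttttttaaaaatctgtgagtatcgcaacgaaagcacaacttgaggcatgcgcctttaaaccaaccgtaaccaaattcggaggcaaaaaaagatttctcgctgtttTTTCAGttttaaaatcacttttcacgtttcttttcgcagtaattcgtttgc

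The motifs were TTTCAG, the form of a splice acceptor, the TATA box form TATAAA, the repeat GAGAGA, the words TTTGAA and also TTCGAA, which are forms of the cell cycle homology element, TTTCCCGC and TTTGGCGC, which are forms of an E2F site, and CGCG. The mex-1 window held CGCG 4 times, as close pairs that begin between 16 bases before and 3 bases after the summit, and none of the others. CGCG was present in 52.9% of all thresholded windows of this length and in 25.4% of all candidate windows. The cgh-1 window held GAGAGA once, beginning 7 bases before the summit. That word was present in 35.6% of thresholded and 16.4% of candidate windows. The pie-1 window held TTTCAG once, which was present in 16.4% of thresholded and 30.2% of candidate windows. No motif is contained in another, and these matches describe the letters only.

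mex-1 had the highest signal of the 10 genes. It encodes a CCCH zinc finger protein that the embryo needs to keep germline factors in the posterior blastomeres. The gene (WBGene00003228) lies on the plus strand at chrII:11968637-11972330. Its thresholded summit at II 11967706 had a signal of 195 and rank 270 in the pooled list, in a region that spans 11967476 to 11967935. In replicate 1 the summit had a signal of 118 and rank 205, and in replicate 2 a signal of 72.1 and rank 435. The replicate summits were 14 bp apart. Both were among the 1686 strongest lines of their replicate, which began at 46.6 in replicate 1 and 38.2 in replicate 2. The summit was 931 bp upstream of mex-1 and 162 bp from the start of the divergent gene W03C9.5, so it lay much nearer to that gene. Given only to the gene with the nearest start, it went to W03C9.5 and mex-1 had no thresholded summit. A second candidate lay 205 bp closer to mex-1, with a pooled signal of 38.5. Replicate 1 had 19.0 there and replicate 2 had 18.5. G and C made up 31.8% of the bases around this second summit.

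cgh-1 was the other gene with a thresholded summit. It encodes a DEAD-box helicase of the DDX6 family, which acts in mRNA storage and decay and protects maternal mRNAs in oocytes. The gene (WBGene00000479) lies on the minus strand at chrIII:7495320-7497832. Its summit at III 7498533 had a signal of 139 and rank 551 in the pooled list, in a region from 7498303 to 7498762. Replicate 1 had 68.2 there (rank 748), replicate 2 had 67.3 (rank 507), and the replicate summits were 44 bp apart. The summit lay 701 bp upstream of cgh-1, between it and C07H6.9, a gene on the same strand whose start was 938 bp away. A second summit 201 bp further upstream had a signal of 52.6 in the pooled list and 28.0 in replicate 2, and replicate 1 listed none there. A snoRNA gene, C07H6.10, lies in an intron of cgh-1.

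**Figure D1:**
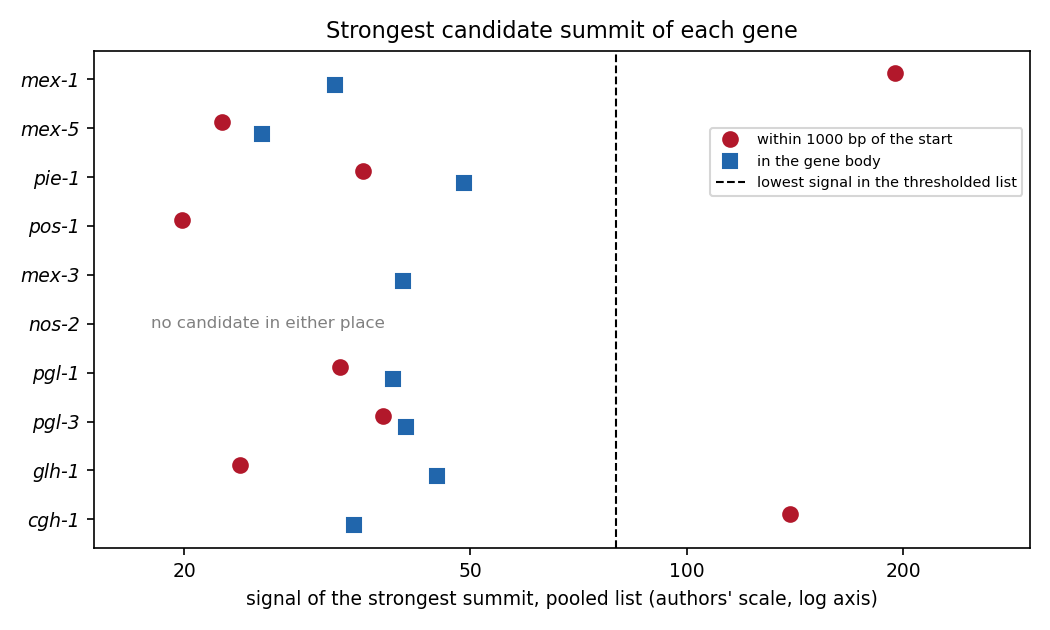
Signal of the strongest pooled summit of each gene (authors' scale, log axis), within 1000 bp of the start (circles) and in the gene body (squares), with a dashed line at 79.7, the lowest thresholded signal. Only the start windows of mex-1 (195) and cgh-1 (139) lie beyond the line, and nos-2 has no candidate.

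As a share of the list, 2 of 10 had a thresholded summit within 1000 bp of the start, against 5.83% of all protein-coding genes. With each replicate's own 1686 strongest lines the same 2 genes were found, against 5.65% of all genes in replicate 1 and 5.96% in replicate 2. A count of 2 in a list this short is a description and no test was made of it. Within 500 bp of the start, none of the 10 had a thresholded summit, against 4.36% of all genes.

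The other CCCH zinc finger genes, pie-1 (WBGene00004027, chrIII:12426893-12429195), mex-5 (WBGene00003230, chrIV:13353723-13356104) and pos-1 (WBGene00004078, chrV:8414086-8415254), had candidates near their starts that were below the threshold. All 3 are on the plus strand. pie-1 encodes a protein that blocks transcription by RNA polymerase II in germline blastomeres, and its strongest start summit had a signal of 35.5, rank 8639, 489 bp upstream. Near that position replicate 1 had a signal of 13.3 and replicate 2 of 21.1, with summits at offsets of -473 and -531 bp. mex-5 encodes an anterior protein that helps to separate soma from germ line in the embryo. Its strongest start summit had a signal of 22.5 and lay in a coding exon, 779 bp downstream of the start. Replicate 1 listed it at 21.9, offset 809 bp, and replicate 2 listed no summit near the start. Another mex-5 summit, at 19.8, lay 435 bp upstream and 95 bp from the start of the divergent gene rec-8, which encodes a meiotic cohesin subunit. pos-1 encodes a translational repressor of posterior blastomeres, and it had a single pooled summit of signal 19.9, 538 bp upstream and 66 bp from the start of the divergent gene vha-18, which encodes a proton pump subunit. Neither replicate listed a summit within 1000 bp of the start of pos-1.

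The granule genes pgl-1 (WBGene00003992, chrIV:6974441-6977318, minus strand), pgl-3 (WBGene00003994, chrV:4755979-4758587, plus strand) and glh-1 (WBGene00001598, chrI:6854478-6857536, plus strand) were also below the threshold. The PGL proteins form the scaffold of P granules, and GLH-1 is a germline helicase related to Vasa. pgl-3 had a start summit of signal 37.8 and rank 7553 that lay in a coding exon of the upstream linker histone gene hil-4. Neither replicate listed that summit. A second one, 476 bp upstream of pgl-3, had a signal of 29.2 in the pooled list and 28.4 in replicate 2, and replicate 1 listed no summit near the start. pgl-1 had 4 pooled summits within 1000 bp of its start, from 24.3 to 33.0, of which those upstream lay in exons of the divergent gene him-3, which encodes a meiotic chromosome axis protein. Replicate 1 gave pgl-1 up to 28.1 near the start, while replicate 2 listed none. glh-1 had 23.9, 487 bp upstream and in a coding exon of sacy-1, with 14.3 in replicate 1 and none in replicate 2.

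mex-3 (WBGene00003229, chrI:127285-134270) and nos-2 (WBGene00003784, chrII:7065618-7067051), both on the plus strand, had no candidate within 1000 bp of their starts in any list. mex-3 encodes a KH domain protein that represses translation of maternal mRNAs, and nos-2 a Nanos protein of the primordial germ cells. The nearest pooled summit to the start of mex-3 was 3139 bp downstream, inside the gene, with a signal of 18.1. For nos-2 it was 2909 bp upstream, with a signal of 24.4. In all, 8 of the 10 had a pooled candidate near the start, against 45.8% of all protein-coding genes. Replicate 1 listed 6 (43.5% of all genes), replicate 2 listed 4 (38.8%), and both replicates listed 3, mex-1, cgh-1 and pie-1 (28.7%). Over the 8 genes with a candidate the median signal was 34.2, against 32.8 over the 9153 protein-coding genes with one.

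**Figure D2:**
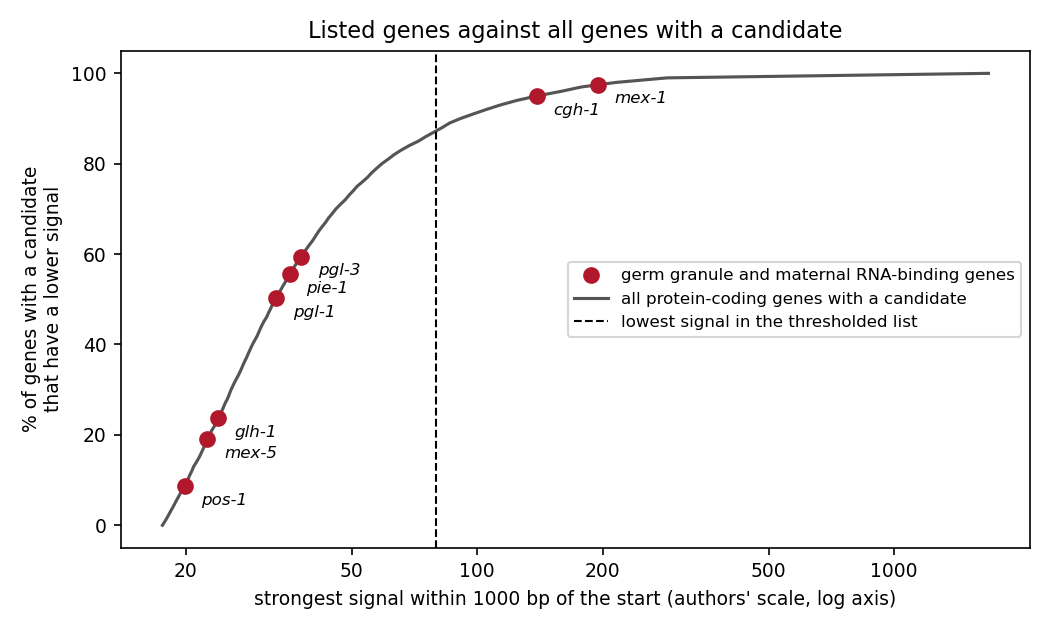
Strongest pooled signal within 1000 bp of the start (authors' scale, log axis) against the percent of genes with a candidate that have a lower signal. The red points are the 8 listed genes with a candidate and the line is all 9153 genes with one. mex-1 lies above 97.5% of them and cgh-1 above 95.0%, and the other 6 lie between 8.72% and 59.5%.

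Candidates near these genes lay at some distance from the annotated starts. The nearest pooled summit lay between 435 and 726 bp from the start in the 8 genes, with a median of 513.5 bp. Over all 9153 genes with a candidate within 1000 bp the median was 276 bp, and 67.4% had a summit nearer than 435 bp. The strongest start summit was upstream in 6 of 8, against 60.5% of all genes with one. It lay nearer to the start of another gene than to that of the listed gene for 2 of 8, mex-1 and pos-1. That share was not computed over all genes. With summits given only to the nearest protein-coding start, 6 of the 10 kept a candidate, against 40.9% of all genes. In worms, an annotated start can be the site where a spliced leader was joined, with transcription beginning further upstream. Whether this applies to any of the 10 genes was not tested.

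**Figure D3:**
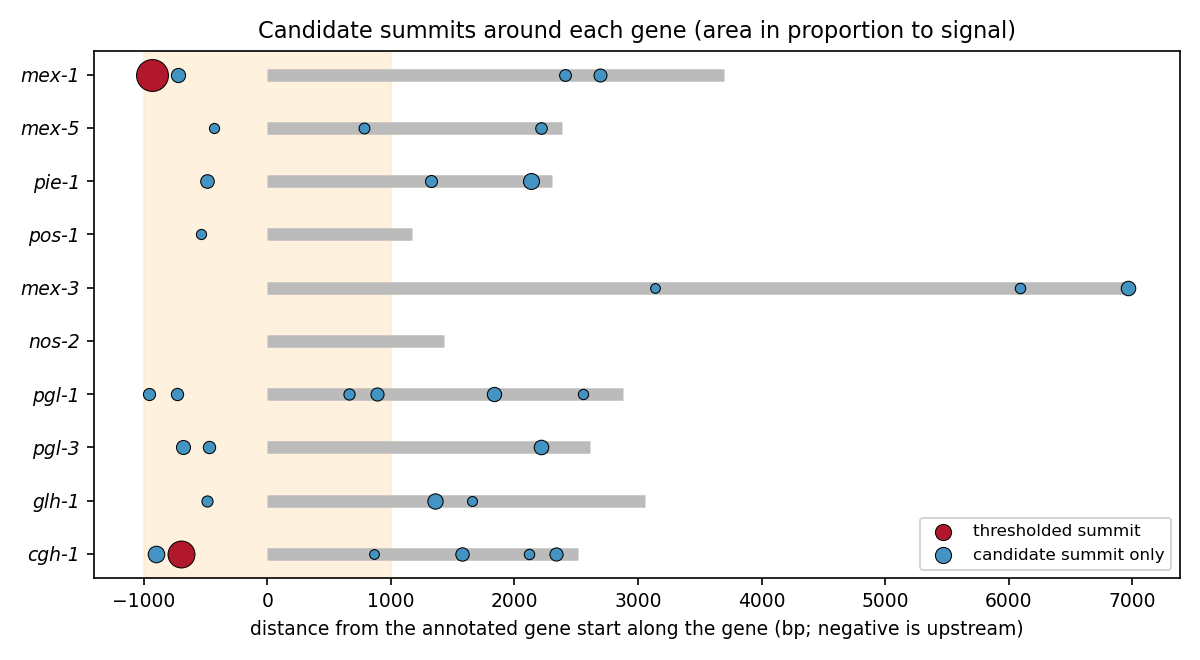
Pooled summits (circles, area in proportion to signal) by distance from the annotated gene start in bp, with gene bodies as grey bars and the window of 1000 bp on both sides shaded. The thresholded summits of mex-1 and cgh-1 are at -931 and -701 bp, and the summit nearest to a start is at -435 bp (mex-5).

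Inside the gene bodies, no summit of the 10 genes reached the thresholded list or the 1686 strongest lines of a replicate. A pooled summit lay in the body of 8 of 10, against 42.7% of all protein-coding genes, and no thresholded one did, against 2.50%. A summit inside a gene and within 1000 bp of its start counted in both places, as in mex-5, pgl-1 and cgh-1. These 10 genes had a median length of 2561 bp, against 2027 bp over all protein-coding genes. The strongest body signals in the pooled list ran from 25.6 (mex-5) to 49.0 (pie-1). The pie-1 summit, in a coding exon near the end of the gene, was at rank 4342 and 2137 bp downstream of the start. It lay 599 bp from the start of snr-6, which encodes a spliceosomal Sm protein. The strongest pie-1 body summits of the replicates were 7 bp apart in the 3′ UTR, with a signal of 16.4 (rank 17035) for replicate 1 and 34.5 (rank 2083) for replicate 2.

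For glh-1 the strongest pooled body signal was 44.9, with 23.7 for replicate 1 and 22.7 for replicate 2. pgl-3 had 40.7, with 18.8 in replicate 1 and 17.0 in replicate 2, in a coding exon near the end of the gene and 2141 bp from the start of the noncoding gene linc-65. mex-3 had 40.3, with 21.5 and 20.1 in replicates 1 and 2, in its 3′ UTR and 89 bp from the start of the neighbouring gene F53G12.4. The replicates were close in position for these pgl-3 and mex-3 summits, at 78 and 70 bp apart, and 156 bp apart for glh-1. pgl-1 had 39.1 in the pooled list, at an offset of 1838 bp. Its strongest body summits in the replicates, 28.1 in replicate 1 and 16.4 in replicate 2, were 1103 bp apart. Their offsets were 736 bp in replicate 1 and 1839 bp in replicate 2. Replicate 1 also had a weaker pgl-1 body summit of 21.8 at an offset of 1756 bp, close to that of replicate 2. cgh-1 had 34.4, with 31.2 in replicate 1 and 30.0 in replicate 2 at places 760 bp apart, and mex-1 had 32.4, with 18.2 and 15.8 at places 324 bp apart.

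pos-1 was listed differently by the replicates. Replicate 1 had a summit of signal 44.5 and rank 1821 in the 3′ UTR of pos-1, just below its 1686 strongest lines. Neither replicate 2 nor the pooled list had any summit in that gene. In mex-5, too, body summits of 22.1 and 21.9 stood in replicate 1 alone among the replicates. Both replicates listed a body summit for 7 of the 10 genes, against 26.3% of all protein-coding genes. The strongest summits of the replicates in these genes were between 7 bp (pie-1) and 1103 bp (pgl-1) apart. Their signals had a Spearman correlation of 0.0357 between the replicates over the 7 genes, given as a description only. It paired each replicate's strongest summit, which was not the same region in every gene, so it does not measure agreement at shared summits.

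**Figure D4:**
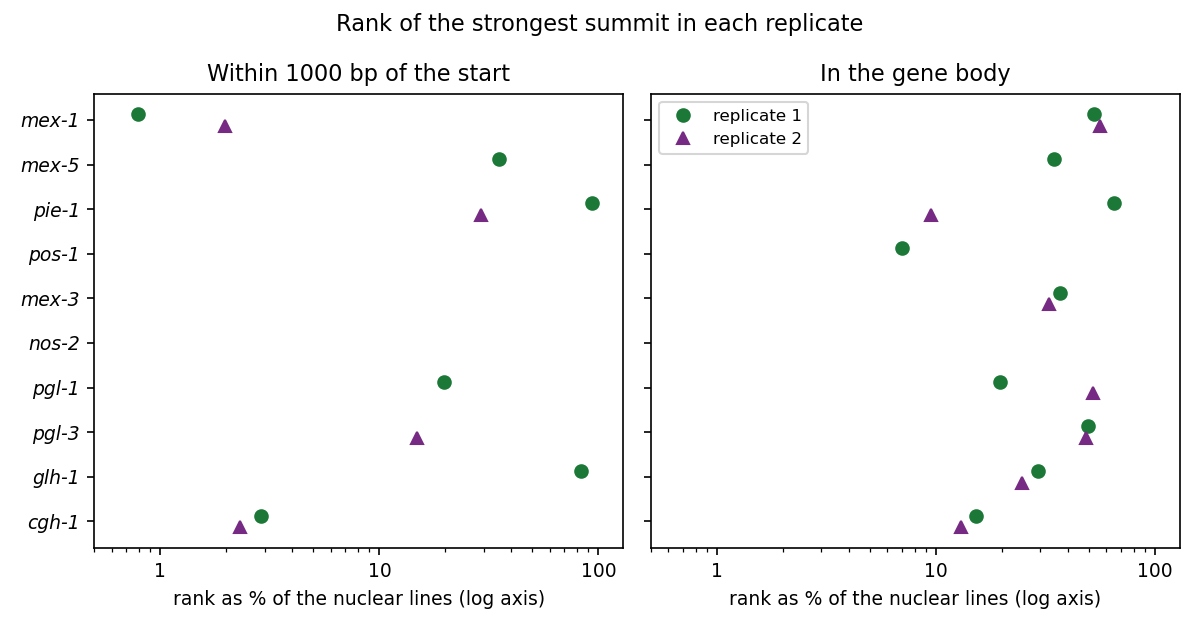
Rank of the strongest summit of each gene as a percent of the nuclear lines of its replicate's list (log axis, low is strong), near the start (left) and in the body (right), with replicate 1 as circles and replicate 2 as triangles. mex-1 and cgh-1 are within the strongest 3% near the start in both replicates, and a gene with no symbol has no summit in that replicate.

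Of the 20 pooled body summits of these genes, 14 lay past the midpoint of the gene and 8 of these past 75% of its length. The strongest one of each gene was past the midpoint in 7 of 8 (87.5%), against 53.0% of the 8521 protein-coding genes with a body summit. The exception was glh-1, at 44.5% of its length. Of the 32 pooled summits near the starts or in the bodies of the 10 genes, 14 (43.8%) were in coding exons, 8 were intergenic, 5 in introns and 5 in untranslated regions. Of the 24298 summits in the same windows of all protein-coding genes, 28.6% were in coding exons, 20.2% intergenic, 38.2% in introns and 9.88% in untranslated regions. Summits of 1 gene are not independent of each other, and no test was made. In all, 9 of the 10 had a pooled summit near the start or in the body, against 56.6% of all protein-coding genes.

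Related genes were described from a list of other germ granule genes, germline RNA-binding genes and genes of mRNA decay and storage. Of 56 names, 55 were found in the annotation. Of these, 32 (58.2%) had a pooled candidate within 1000 bp of the start, against 45.8% of all genes. They were 6 of 15 germ granule genes (40.0%), 13 of 25 germline RNA-binding genes (52.0%) and 13 of 15 decay and storage genes (86.7%). Both replicates listed a start summit for 4, 7 and 10 genes of these groups, 21 of the 55 in all, against 28.7% of all genes. Some of the decay and storage summits lay nearer to the start of another gene, and that share was not computed over all genes. A thresholded summit near the start was listed for 5 of the 55 (9.09%), against 5.83% of all genes. None of 15 germ granule genes had a thresholded summit, against 3 of 25 germline RNA-binding genes and 2 of 15 decay and storage genes. The median signal over the 32 was 32.1.

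ifet-1, which encodes the eIF4E-binding partner of CGH-1 in translational repression, had the strongest summit of the list. Its pooled signal was 617 at rank 23, with 318 for replicate 1 (rank 22) and 304 for replicate 2 (rank 23). The summit was at an offset of -498 bp and 9 bp from the start of the ncRNA gene F56F3.11. larp-1, a La-related RNA-binding gene, had a pooled signal of 454, with 248 for replicate 1 and 206 for replicate 2. Its summit was at an offset of -673 bp and nearer to the start of wip-1, at 316 bp. atx-2, the ataxin-2 gene, had a pooled signal of 243 at an offset of -59 bp, with 163 for replicate 1 and 77.5 for replicate 2. These 3 had higher pooled signals than mex-1.

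spn-4, which encodes an RNA-binding protein of early blastomeres, had a pooled signal of 100.3. Replicate 1 had 34.9 (rank 3074) and replicate 2 had 64.8 (rank 542). The spn-4 summit was at an offset of -426 bp and nearer to the start of spe-39, at 122 bp. lsm-3, an Sm-like gene of mRNA decay and splicing, had 79.9, near the lowest thresholded signal, with 52.0 in replicate 1 and 22.6 in replicate 2. Its summit was at an offset of -949 bp and 70 bp from the start of Y62E10A.23. In replicate 1 the spn-4 summit, and in replicate 2 the lsm-3 summit, was outside the 1686 strongest lines. With each summit given only to the nearest protein-coding start, atx-2 alone of the 5 genes kept a thresholded one (4.32% of all genes). The strongest of the related genes without a thresholded summit was nos-3, a second Nanos gene, at 74.6.

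**Figure D5:**
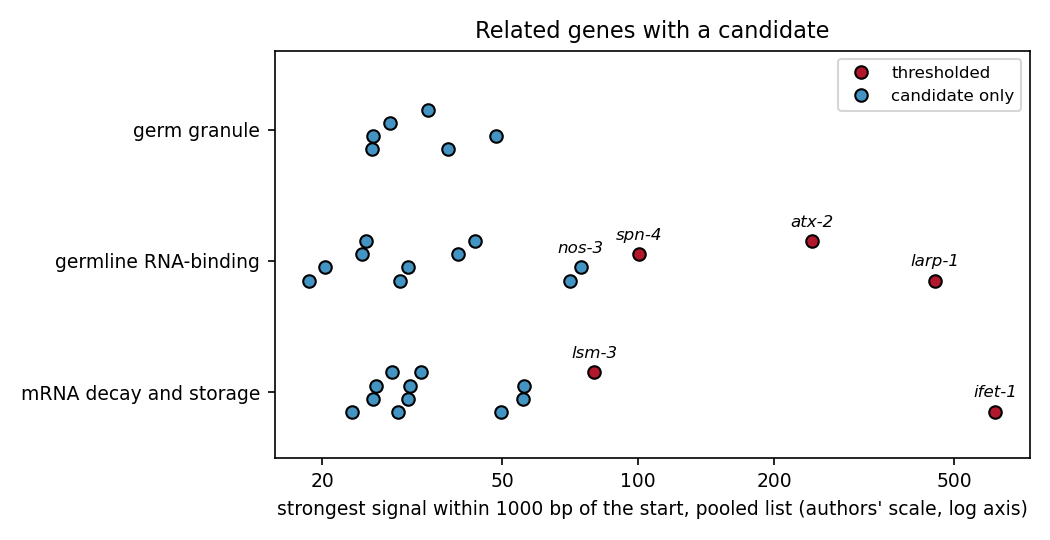
Strongest pooled signal within 1000 bp of the start (authors' scale, log axis) of the 32 related genes with a candidate, by group, with thresholded summits in red. The thresholded genes are larp-1, atx-2, spn-4, ifet-1 and lsm-3, and the germ granule genes reach 48.4 (mip-1).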

How the data were processed

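ChIP-seq regions were taken from the authors' lists on ce11. Per the deposited text listings, each replicate's list of candidates and background went into an irreproducible discovery rate (IDR) analysis, lists were made with 1 control alignment, and a pooled and a thresholded list cover both replicates. No source used here names the aligner, the peak caller or the threshold. The deposited signal is the authors' value per region on a scale that is not stated. Of the thresholded lines, 92.6% share the highest deposited −log10 q, so it ranked nothing. The 1686 thresholded lines were the strongest of the 30000 pooled lines. Lists on ce10 were not used, since no coordinate was converted.

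Genes came from Ensembl release 115 for WBcel235, the same assembly as ce11, and region ends lay within its 6 nuclear chromosomes. Mitochondrial lines (23 in the pooled list) were left out of ranks. A gene had a summit when one lay within 1000 bp of the start of its gene record, or in its body. Shares are given beside those of all nuclear protein-coding genes, which include the members. No p-value was computed, since there is 1 group and the genes are a chosen list. Members and lists were chosen with earlier results of these data known. All 10 members were named, the related genes with a thresholded summit, the strongest without one, and genes whose start lies nearest to a member's strongest summit. Window rules were tested on simulated summits. Python 3.11.15 with pandas 2.3.3 was used. Regions or genes that share a promoter are not independent.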

Additional observations from a re-analysis of the deposited data

How the results depend on the processing

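The count of 2 listed genes with a thresholded summit near the start was the same within 2000 bp, from any transcript start, by region overlap, among the 843 and among the 3372 strongest pooled lines, and in each replicate alone (lowest 2, highest 2). It was 0 within 500 bp (4.36% of all protein-coding genes, against 5.83% within 1000 bp) and 1, cgh-1, with the nearest start only (4.32%). The count of 8 with a pooled candidate was 4 within 500 bp (33.5% of all genes, against 45.8%), 6 with the nearest start only (40.9%), and 4 to 6 with 1 replicate left out (38.8% and 43.5%). No setting gave a thresholded summit in the body of a listed gene. The share of all genes was low as well, from 1.02% among the 843 strongest lines to 5.83% among the 3372 strongest. The count of 5 related genes was 3 within 500 bp and 8 within 2000 bp (8.52% of all genes). It was 1, atx-2, with the nearest start only (4.32%). Among the 843 strongest lines it was 3 (3.15%), and among the 3372 strongest 9 (10.2%). With 1 replicate left out it was 4 to 5 (5.65% and 5.96%). The cause of these differences was not tested, beyond the wider or narrower rule itself. No paired analysis was possible because there is 1 group. Read depth is unknown, so a gene without a candidate may still have signal below the lowest listed value of 17.6.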

Other observations

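For the 8 genes without a thresholded summit within 1000 bp of the start, the nearest one was between 7329 bp (glh-1) and 64787 bp (pos-1) from the start, with a median of 36026.5 bp. Over all 10 genes the median was 29595 bp, against 26959 bp over all protein-coding genes. For mex-5 the nearest one, 32531 bp away with a signal of 79.9, was the summit that also lay within 1000 bp of lsm-3.

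Windows of 201 bp at the mex-1 and cgh-1 summits were rich in G and C. The mex-1 window had more than 79.9% of the thresholded windows and 91.5% of all candidate windows, and the cgh-1 window had more than 63.1% and 84.6%. Median shares of G and C were 45.3% over thresholded and 37.3% over candidate windows. Among the strongest start summits of the other 6 genes, the share ran from 33.8% (pie-1) to 46.8% (pgl-3). TTTCAG was found in 3 of the 8 windows at strongest start summits, against 30.2% of all candidate windows. TTTGAA was in 3 (41.1% of all), GAGAGA in 2 (16.4%), CGCG in 1 (25.4%) and TATAAA in 1 (23.1%). None held TTCGAA (11.3% of all), TTTCCCGC (1.15%) or TTTGGCGC (0.761%).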
